A study of Mus musculus with 6 samples.

Results

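The genes of the constitutive proteasome were examined in primary mesangial cells of the mouse, which support and contract the capillary loops of the kidney filter, with and without transforming growth factor beta 1 (TGF-β1), a secreted protein that drives scarring. Members were taken by name: every row whose symbol begins with Psma to Psmg followed by a number, without pseudogenes and without the immunoproteasome subunits Psmb8, Psmb9 and Psmb10. The rule found 45 genes among the 19730 rows of the expression table. Of these, 14 form the core particle, 17 form the regulatory cap, and 14 are assembly chaperones, activators, an inhibitor, a thymus subunit or a name match only. Psma8, a testis subunit, has no row. RNA-Seq was run on 3 Control and 3 TGF-β1 libraries. The TGF-β1 cells received 10 ng/ml for 72 h, and the labels give no treatment for the Control cells. Both groups were cells of passage 3 to 6, and the medium of both held 25.5 mM glucose and 20% serum. No mouse strain or age is given, and the study collected 3 samples per group and speaks of biological replicates for its methylation data. Whether the 3 RNA samples of a group came from separate cultures is not stated, so p-values measure only the spread between these samples, which may be technical.

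The proteasome is the main machine for breaking down proteins tagged with ubiquitin. Its core particle, called 20S, is a barrel of stacked rings, with outer rings of alpha subunits that gate the entrance and inner rings of beta subunits that hold the cutting sites. The regulatory cap, called 19S, sits on the end of the barrel, where its lid and base bind the ubiquitin chain, remove it, unfold the protein and feed it into the core. Other activators can take the place of the cap, and dedicated chaperones help to put core and cap together. The subunits are assembled in fixed proportions, and in kidney cells, as elsewhere, the proteasome turns over signalling proteins and misfolded proteins.

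The promoters of 4 members are shown first, chosen after the values were seen. Psmd14 in the lid had the largest change, and Psmd2 and Psmc6 in the base were called higher under every setting tried. Psme1, an activator subunit, was the single member called lower. Psma1, Psmd1, Psmd5, Psmd8 and Psmd14 were also called higher under every setting tried, and of these only Psmd14 is shown. Each run is the 250 bases before the annotated start, from RefSeq on GRCm38.p6, plus strand, written 5′ to 3′, and capitals mark the letters of the motif named. The intervals are chr2:61711444-61711693 for Psmd14 (capitals, the CCAAT box on the reverse strand), chr16:20651402-20651651 for Psmd2 (capitals, the ETS core CCGGAAG on the reverse strand), chr14:45329574-45329823 for Psmc6 (capitals, the antioxidant response element core TGACNNNGC on the reverse strand and then the ETS core on the strand shown) and chr14:55578244-55578493 for Psme1, where none of the 6 motifs searched was found in these bases.
Psmd14: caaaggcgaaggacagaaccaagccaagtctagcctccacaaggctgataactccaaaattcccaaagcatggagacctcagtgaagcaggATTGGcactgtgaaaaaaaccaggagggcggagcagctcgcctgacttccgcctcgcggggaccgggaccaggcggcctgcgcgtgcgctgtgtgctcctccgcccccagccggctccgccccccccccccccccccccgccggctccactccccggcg
Psmd2: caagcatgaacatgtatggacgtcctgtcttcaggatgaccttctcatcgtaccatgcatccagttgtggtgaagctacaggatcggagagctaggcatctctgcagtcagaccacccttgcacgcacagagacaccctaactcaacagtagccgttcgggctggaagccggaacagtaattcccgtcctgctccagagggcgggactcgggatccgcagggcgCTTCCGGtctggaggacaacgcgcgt
Psmc6: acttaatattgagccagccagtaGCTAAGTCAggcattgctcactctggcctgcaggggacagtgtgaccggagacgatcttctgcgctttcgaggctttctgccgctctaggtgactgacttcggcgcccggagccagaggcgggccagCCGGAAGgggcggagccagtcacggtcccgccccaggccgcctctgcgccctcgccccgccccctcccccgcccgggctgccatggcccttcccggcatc
Psme1: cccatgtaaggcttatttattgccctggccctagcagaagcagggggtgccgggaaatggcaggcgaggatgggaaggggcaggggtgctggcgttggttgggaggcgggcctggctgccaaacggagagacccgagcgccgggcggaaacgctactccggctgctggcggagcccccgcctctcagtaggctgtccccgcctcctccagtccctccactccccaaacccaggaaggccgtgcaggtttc

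Motifs were counted on both strands in windows of 300 bases, from 250 before to 50 after the start, in 41 promoters of 38 members and in 32851 promoters of all genes. The ETS core CCGGAAG was in 16 member promoters, or 39.0%, against 8.86% of all promoters. It was found at 15 genes, of which Psmc1, Psmc2, Psmc6, Psmd2, Psmd13, Psme3 and Psme4 were called higher and Psma6, Psmc3ip, Psmd4, Psmd6, Psmd11, Psmd12, Psmg1 and Psmg3 were not called. Among the other motifs, TGACNNNGC was in 14.6% against 12.4%, the CCAAT box in 34.1% against 37.4%, the E-box CACGTG in 7.32% against 7.15%, and the SMAD element CAGACA in 14.6% against 21.0%. The cyclic AMP response element TGACGTCA was in no member promoter and in 1.79% of all. None of these motifs was found at Psmd1, Psmd5 and Psmd8, called higher under every setting tried, or at Psme1, called lower. Matches of different motifs could overlap. These are matches of letters in fixed windows and describe the sequences only. The table used has no entry for Psmb1, Psmb2, Psmb7, Psmc3, Psmd3, Psmd7 and Psmg2.

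Some features of the libraries bear on all values. FPKM, fragments per kilobase of transcript and M (mega) mapped fragments, is a level that corrects for length and depth. Depth, recovered from the steps between the lowest FPKM values, was 10.1 to 11.1 M fragments per library. Control replicate 2 and TGF-β1 replicate 2 stood apart together: across rows, their deviations from the group means had a correlation of 0.232, against -0.194 to 0.117 for the other pairs of a Control and a TGF-β1 library. Replicate 2 was not low in all members, since 17 of 45 had their lowest Control value in Control replicate 2 and 10 of 45 their lowest TGF-β1 value in TGF-β1 replicate 2. In TGF-β1 replicate 2 the deviation of a row from its group mean ran against GC content (Spearman's rho -0.39 over 10116 rows), whereas in TGF-β1 replicates 1 and 3 it ran with GC content (0.27 and 0.32). The same values over the 38 members with a known GC content were -0.24, 0.26 and 0.26. In Control replicates 1, 2 and 3 the values were -0.090, 0.011 and 0.098 over all rows and 0.11, -0.033 and 0.035 over the members. Control replicate 2 thus did not share the trend of TGF-β1 replicate 2. Results that rest on replicate 2 are given below with and without it. Of the mesangial markers, Acta2, Tagln and Pdgfrb were detected in all 6 libraries, while Itga8, Thy1 and Des did not exceed 0.551 FPKM, so the label is only in part borne out by its markers. Of the 8 mesangial and pericyte markers 4 were tested. Acta2 and Tagln were called higher, Pdgfrb was called lower (change -0.34, adjusted p = 0.0396) and Gata3 was not called (change -0.39, adjusted p = 0.276). Cspg4, under the filter, was at 0.0577, 0.115 and 0.0473 FPKM in Control. With TGF-β1 it was at 1.36, 0.918 and 1.37 FPKM (limma without the filter, adjusted p = 9.51e-04). The summed level of the 8 was 1406 to 1705 FPKM in Control and 5285 to 6214 FPKM with TGF-β1. Acta2 and Tagln made up nearly all of it in both groups.

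Markers of other kidney cell types also moved with the treatment. Beside the counts of markers called, 24.5% of all tested rows were called higher and 23.6% lower. Of the 4 podocyte markers examined 3 were tested and all 3 were called lower, and their summed level was 19.6 to 24.9 FPKM in Control and 12.5 to 13.7 FPKM with TGF-β1, with Nphs1 at most 0.398 FPKM. Of the 4 macrophage markers found 2 were tested and 1 was called lower, and the sums were 8.19 to 9.58 and 2.26 to 3.24 FPKM, led by Csf1r in Control and by Cd68 with TGF-β1, with Ptprc listed at 0 in all 3 Control libraries. The 4 epithelial markers found summed to 32.2 to 33.8 and 2.08 to 2.53 FPKM, and Cdh1 did not exceed 0.123 FPKM. They moved in opposite directions: Cldn2, the 1 tested, made up nearly all of the Control sum and was called lower, from 32.0, 33.5 and 32.1 FPKM to 0.561, 0.608 and 0.568 FPKM, while Krt18, under the filter, went from 0.150, 0.301 and 0.386 FPKM to 1.52, 1.81 and 1.38 FPKM (adjusted p = 0.00143 without the filter) and made up most of the treated sum. None of the 5 endothelial markers passed the filter, and they summed to 0.361 to 0.468 and 0.299 to 0.822 FPKM, with Kdr and Cdh5 listed at 0 in all Control libraries. The part of any other cell type in the results on proteasome genes was not tested, and in bulk RNA fewer cells of a type and less RNA per cell cannot be told apart.

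With TGF-β1 more proteasome genes were higher than lower, most of them subunits of core and cap. The test was limma on log2(FPKM + 1), and 44 members passed the filter of a mean FPKM of at least 1. At an adjusted p under 0.05, 23 were called higher, 1 was called lower and 20 were not called, and after scaling to the protein-coding sum, described below, 9 were called higher and 3 lower, against 16.9% and 33.0% of all tested rows. Over all 11898 tested rows 48.1% were called, 24.5% higher and 23.6% lower. The median change, as TGF-β1 minus Control on the log2(FPKM + 1) scale, was 0.33 over the members and -0.02 over all tested rows. In 27 members every TGF-β1 library was above every Control library, against 29.9% of all tested rows. In 2 members, Psme1 and Psmc3ip, every TGF-β1 library was below, against 29.5% of all tested rows. The remaining 15 overlapped between groups. Proteasome genes were among the abundant transcripts: the median member was at percentile 90.8 of mean FPKM, and 25 members lay in the top 10% of tested rows.

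**Figure D1:**
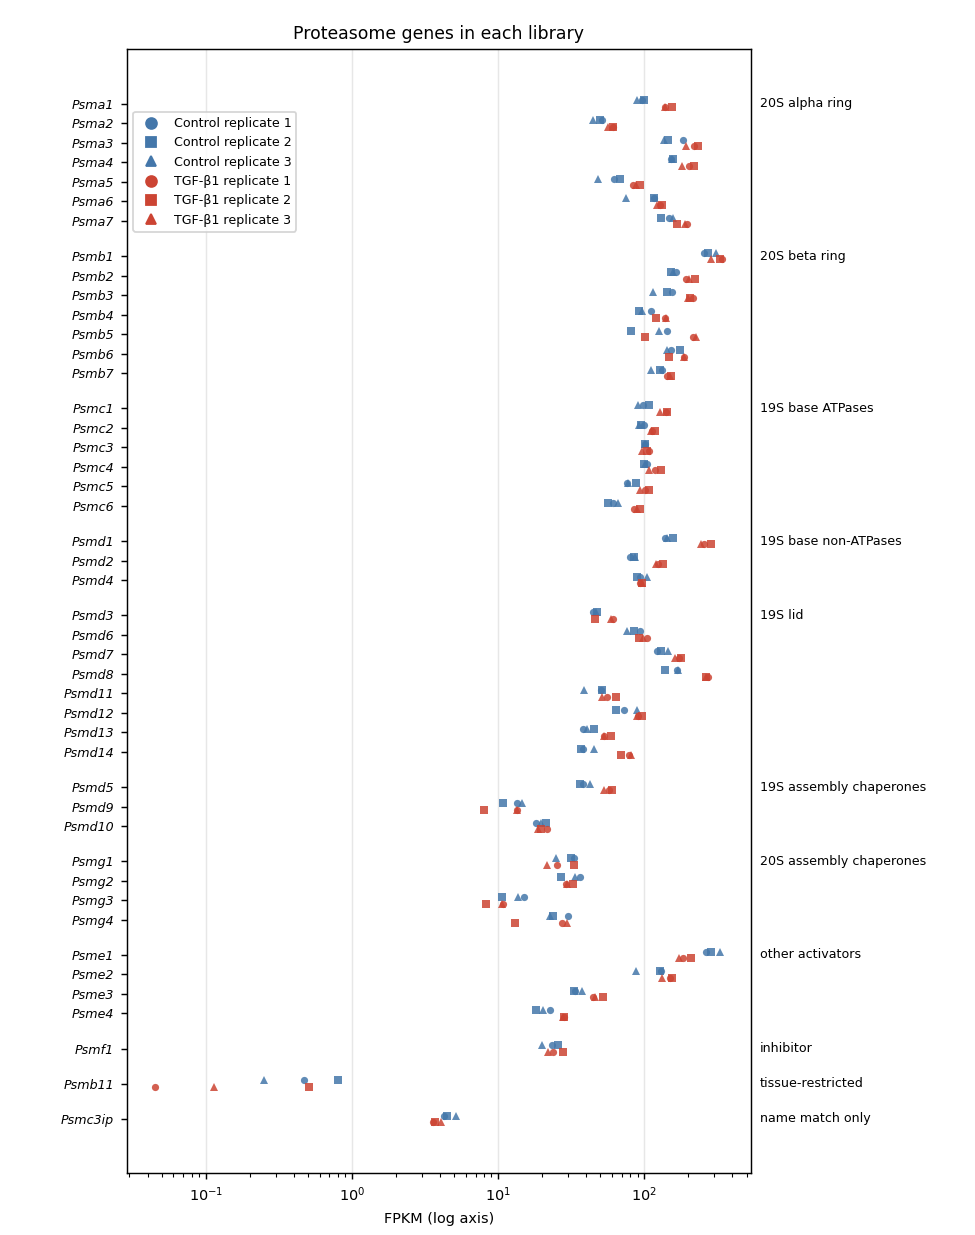
FPKM of the 45 members in each library on a log axis, grouped by role, with Control in blue, TGF-β1 in red and the marker shape giving the replicate number. Core and cap genes lie between 36.7 and 342 FPKM, for the most part with red to the right of blue, and Psme1 has all red points to the left.

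Calls are given next by place in the machine. All 31 subunits of core and cap had a positive change with the values as deposited, against 5810 of all 11898 tested rows. The number was 29 with upper-quartile scaling and 28 after scaling to the protein-coding sum. The median change of all tested rows was then -0.07 and -0.19. As deposited, 20 of the 31 were called higher and none lower, against 24.5% and 23.6% of all tested rows. Of the 13 tested members outside core and cap, 3 were called higher, near the share of all rows, and 1 lower. These shares of all rows also stand beside the counts by role given below. Summed over its 14 genes, the core was 1921, 1809 and 1760.0 FPKM in Control replicates 1 to 3 and 2460.5, 2335 and 2356 FPKM with TGF-β1, a mean of 1830.3 ± 82.7 (SD, n = 3) against 2384 ± 67.2 (SD, n = 3), a ratio of 1.30. Summed over its 17 genes, the cap was 1479, 1476 and 1512 FPKM in Control and 2025, 2081 and 1944 FPKM with TGF-β1, a mean of 1489 ± 20.0 against 2017 ± 69.3, a ratio of 1.35. For both, the groups did not overlap. The ratio of core to cap sums was 1.30, 1.23 and 1.16 in the Control libraries, and after TGF-β1 it was 1.21, 1.12 and 1.21, so the groups overlapped. Core and cap together went from 3319 ± 70.6 to 4401 ± 94.0 FPKM, a ratio of 1.33. These sums are of the values as deposited and are descriptions, with no test. The median change of the core and cap genes was 0.36 as deposited and 0.17 after scaling to the protein-coding sum.

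**Figure D2:**
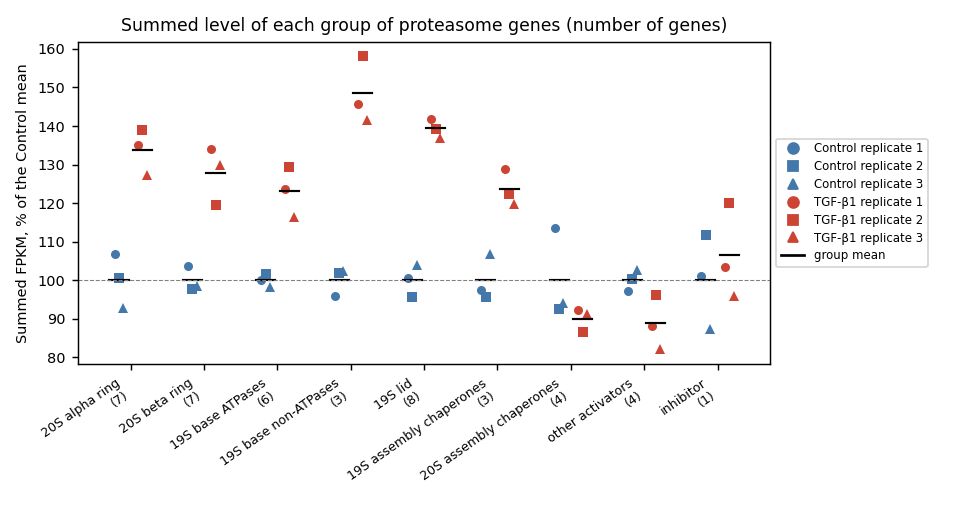
Summed FPKM of the role groups in each library, relative to the Control mean of the group (100%), with Control in blue and TGF-β1 in red. The sums of the rings, base and lid are higher in all 3 TGF-β1 libraries than in all 3 Control libraries. The sum of the other activators is lower, although 3 of its 4 genes have a positive change and only Psme1 has a negative change.

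Although the subunits are built into 1 particle in fixed numbers, their FPKM levels differed. Within a library the highest core gene was 4.99 to 6.87 times the lowest, and in all 6 libraries Psma2 was the lowest and Psmb1 the highest. In the cap the highest was 4.30 to 6.20 times the lowest. FPKM is a level per length, so the genes can be set side by side, but the deposited table names 1 transcript per row and does not say whether the value is that of the gene. For Psmd1, Psmb6, Psmd9, Psmd11, Psma7 and Psmc5 the transcript named is annotated as other than protein coding. Counting of strand is not stated, and 17 members overlap another annotated gene, among them Psma3, Psma4, Psma5, Psmd1, Psmd14, Psme1 and Psme4.

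In the alpha ring, which forms the gate and the docking surface of the core, 6 of 7 genes were called higher and in all 7 every TGF-β1 library was above every Control library. Psma1 had the largest change, with 97.03, 98.8 and 88.7 FPKM in Control and 137, 155 and 139 FPKM with TGF-β1 (change 0.59, SE 0.0868, adjusted p = 0.00221). Its highest Control value was below its lowest treated value. Psma2 had the smallest change, from 51.5, 49.5 and 44.8 FPKM to 60.6, 61.0 and 56.1 FPKM (change 0.28, SE 0.0841, adjusted p = 0.0336). Psma6 was not called: its levels were 116, 117 and 75.3 FPKM in Control and 128, 131 and 122 FPKM with TGF-β1 (change 0.33, SE 0.179, adjusted p = 0.174), and Control replicate 3 was far below the other Control libraries. Psma3, Psma4, Psma5 and Psma7 were called higher, with changes of 0.35 to 0.57 and adjusted p of 0.0146 to 0.0394.

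The beta ring, which holds the cutting sites, had 4 of 7 genes called higher. Psmb3, a subunit without a cutting site, had the largest change, with 154, 144 and 114 FPKM in Control and 216, 207 and 198 FPKM with TGF-β1 (change 0.60, SE 0.124, adjusted p = 0.00872). Psmb2 and Psmb4, likewise without a cutting site, were called higher with changes of 0.37 (adjusted p = 0.0130) and 0.42 (adjusted p = 0.0196). Psmb1, the most abundant core transcript, was at 257, 273 and 307 FPKM in Control and 342, 330.5 and 287 FPKM with TGF-β1 (change 0.20, SE 0.110, adjusted p = 0.189). Its groups overlapped and it was not called.

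Of the 3 catalytic subunits, 1 was called. Psmb5, which carries the chymotrypsin-like activity, was at 142, 80.7 and 127 FPKM in Control and 216, 100.4 and 226 FPKM with TGF-β1 (change 0.58, SE 0.366, adjusted p = 0.236). Both replicate 2 libraries were the lowest of their group, and TGF-β1 replicate 2 was below Control replicates 1 and 3. With replicate 2 as a batch term the same change had an adjusted p of 0.00979, and with replicates 1 and 3 alone the change was 0.71 (adjusted p = 0.0114). Without TGF-β1 replicate 2 it was 0.96 (adjusted p = 0.0326), but without Control replicate 2 it was 0.34 (adjusted p = 0.520). Leaving out replicate 1 or replicate 3 of either group gave 0.38 to 0.74 (adjusted p 0.220 to 0.495). The GC content of the Psmb5 transcript was 57.6%, and its part in the spread was not tested. Psmb6, which carries the caspase-like activity, was at 151, 176 and 142 FPKM in Control and 187, 147 and 188 FPKM with TGF-β1 (change 0.15, SE 0.134, adjusted p = 0.391). Here too TGF-β1 replicate 2 was the lowest of its group, but Control replicate 2 was the highest of its own, and with replicates 1 and 3 alone the change was 0.35 (adjusted p = 0.0355). Psmb7, which carries the trypsin-like activity, was at 131, 128 and 112 FPKM in Control and 143, 151 and 149 FPKM with TGF-β1 (change 0.26, SE 0.0877, adjusted p = 0.0485). It passed by little: 16 of 18 alternative settings ended the call, with adjusted p up to 0.527.

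**Figure D3:**
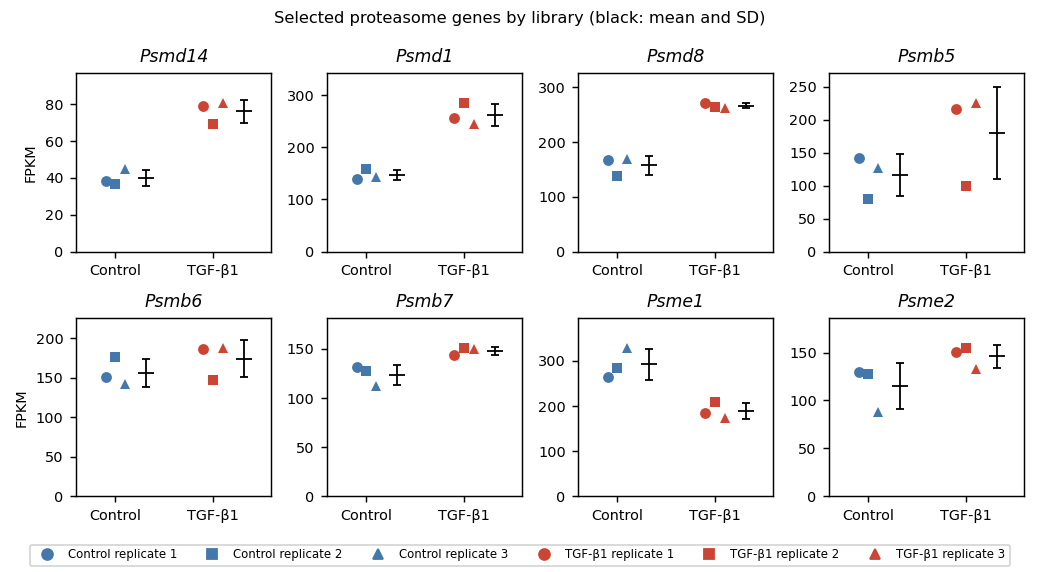
FPKM of selected members in each library, 1 panel per gene with its own axis, with Control in blue, TGF-β1 in red and bars for the group mean and SD (n = 3). Psmd1 and Psmd14 are separated between groups, Psmb5 shows the low replicate 2 of both groups, and Psme1 is lower with TGF-β1.

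The 6 ATPases of the base, the ring of motors that unfolds the substrate, included 4 called higher. Psmc6 had the largest change, with 60.8, 56.5 and 66.4 FPKM in Control and 84.7, 93.4 and 88.6 FPKM with TGF-β1 (change 0.53, SE 0.0884, adjusted p = 0.00364). Psmc3 had the smallest, with 101, 100.4 and 101 FPKM in Control and 107, 104 and 97.01 FPKM with TGF-β1 (change 0.024, SE 0.0717, adjusted p = 0.804), and its groups overlapped. Psmc4 was at 104, 99.2 and 100.4 FPKM and 119, 129.8 and 108 FPKM (change 0.23, SE 0.0892, adjusted p = 0.0808), every TGF-β1 library above every Control library, but was not called. Psmc1, Psmc2 and Psmc5 were called higher with changes of 0.26 to 0.46. Within this motor ring the changes ran from 0.024 to 0.53 on the log2 scale.

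The base also holds large scaffold and ubiquitin-binding subunits. Psmd1, a scaffold of the base, was at 139, 158 and 143 FPKM in Control and 256, 285 and 245 FPKM with TGF-β1 (change 0.83, SE 0.0946, adjusted p = 7.89e-04), while the gene overlaps Armc9 on the same strand and the row names a transcript of 613 nt that is not protein coding. Psmd2, the scaffold that docks shuttle proteins, was at 79.7, 84.5 and 86.1 FPKM in Control and 124, 133 and 119 FPKM with TGF-β1 (change 0.58, SE 0.0780, adjusted p = 0.00152). The groups of both scaffolds were well apart. Psmd4, a ubiquitin receptor, was at 92.7, 89.2 and 104 FPKM and 93.7, 96.2 and 97.03 FPKM (change 0.0089, SE 0.0829, adjusted p = 0.940), with the treated values inside the Control range.

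In the lid, 4 of 8 genes were called higher. Psmd14, the enzyme that cuts the ubiquitin chain off the substrate, had the largest change of all members: 38.2, 36.7 and 44.9 FPKM in Control and 79.0, 69.1 and 80.7 FPKM with TGF-β1 (change 0.92, SE 0.109, adjusted p = 9.36e-04). Psmd8 followed in the lid, with 168, 138 and 169 FPKM and 272, 265 and 263 FPKM (change 0.76, SE 0.101, adjusted p = 0.00155). Psmd7, the structural partner of Psmd14 in the lid, had a change of 0.36 (adjusted p = 0.0203), from 123, 130.3 and 146 FPKM to 172, 179 and 162 FPKM. Psmd13 was called higher as well (change 0.41, adjusted p = 0.0112).

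The other 4 lid genes, all structural subunits, were not called. Psmd6 had the smallest change of the lid, from 93.3, 85.2 and 75.9 FPKM in Control to 104, 92.5 and 97.7 FPKM with TGF-β1 (change 0.21, SE 0.101, adjusted p = 0.132). Psmd11 was at 50.9, 51.6 and 38.6 FPKM and 55.6, 64.1 and 51.2 FPKM (change 0.28, SE 0.144, adjusted p = 0.159), and Psmd12 was at 72.4, 64.2 and 88.4 FPKM and 90.9, 96.9 and 89.7 FPKM (change 0.31, SE 0.126, adjusted p = 0.0869). In both, Control replicate 3 was at 1 end of the Control range, low for Psmd11 and high for Psmd12. Psmd3 was at 44.6, 47.3 and 46.5 FPKM and 60.8, 45.9 and 59.1 FPKM (change 0.25, SE 0.120, adjusted p = 0.138), where TGF-β1 replicate 2 fell among the Control values. With replicates 1 and 3 alone its change was 0.39 (adjusted p = 0.0294).

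**Figure D4:**
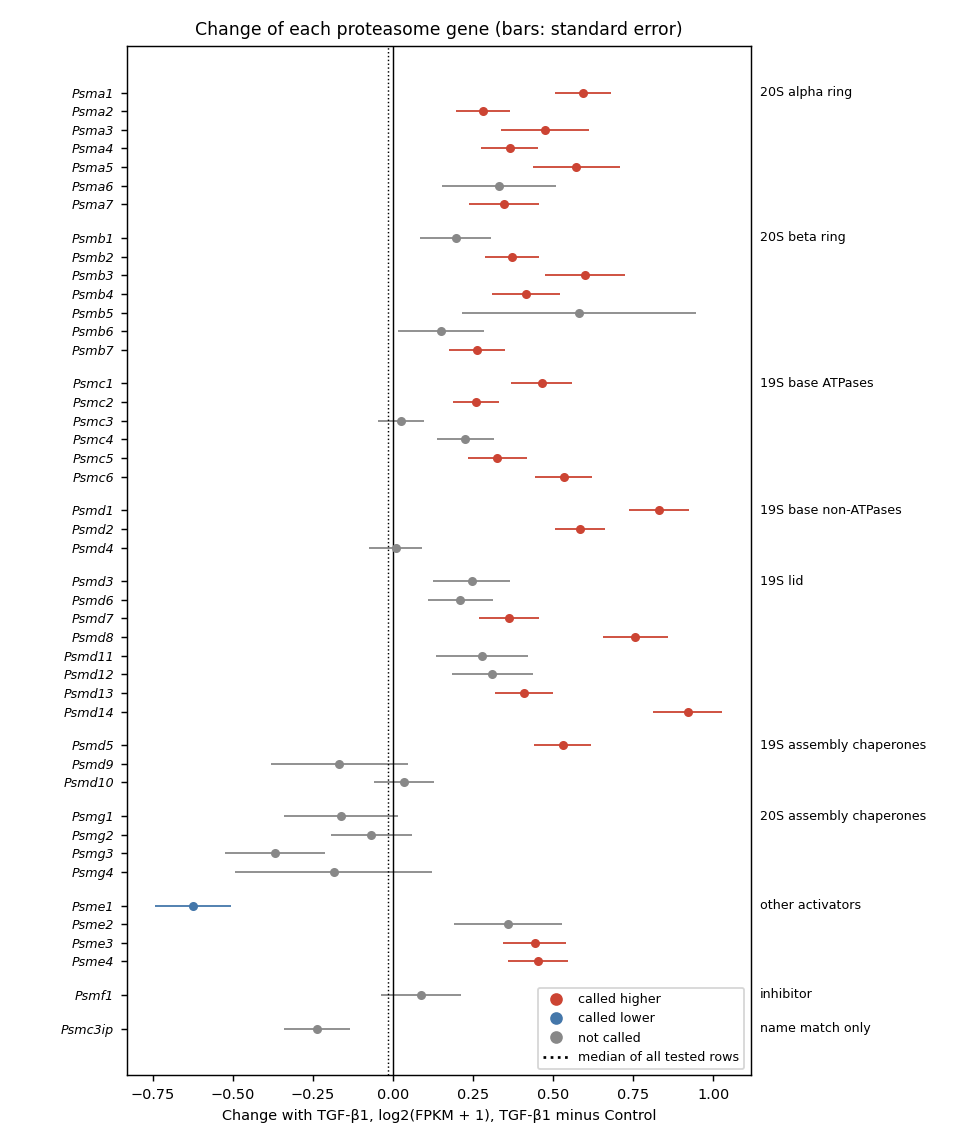
Change of each tested member as TGF-β1 minus Control on the log2(FPKM + 1) scale, with bars of 1 SE from limma, ordered by role, and colour for the call at an adjusted p under 0.05. With the values as deposited all core and cap genes lie to the right of 0, from 0.0089 (Psmd4) to 0.92 (Psmd14), and the core assembly chaperones and Psme1 lie to the left.

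Of the 7 chaperones that assemble the particle 1 was called higher, and the 4 chaperones of the core all had negative changes with none called. Psmd5, a chaperone of the base, was the 1 called, with 38.2, 36.5 and 42.4 FPKM in Control and 56.9, 59.7 and 53.4 FPKM with TGF-β1 (change 0.53, SE 0.0883, adjusted p = 0.00372). The other base chaperones were not called. Psmd9 was at 13.5, 10.8 and 14.5 FPKM and 13.5, 7.99 and 13.4 FPKM (change -0.17, SE 0.215, adjusted p = 0.550), and Psmd10, also known as gankyrin, was at 18.0, 21.1 and 19.5 FPKM and 21.7, 19.7 and 18.8 FPKM (change 0.034, SE 0.0938, adjusted p = 0.786). Psmd9 was lowest in replicate 2 of both groups.

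The chaperones of the core work as pairs that line up the alpha subunits. Of the first pair, Psmg1 was at 32.8, 31.4 and 24.8 FPKM in Control and 25.3, 32.9 and 21.6 FPKM with TGF-β1 (change -0.16, SE 0.178, adjusted p = 0.484), and Psmg2 was at 36.3, 26.8 and 33.7 FPKM and 29.1, 32.6 and 29.7 FPKM (change -0.067, SE 0.126, adjusted p = 0.685). Of the other pair, Psmg3 was at 15.0, 10.7 and 13.6 FPKM and 10.8, 8.21 and 10.7 FPKM (change -0.37, SE 0.157, adjusted p = 0.0975). It was called lower with replicate 2 as a batch term (adjusted p = 0.0133), and its values rest on 53 to 106 fragments a library, a counting CV of 13.8% at the lowest. Psmg4 was at 29.8, 23.9 and 22.4 FPKM and 27.4, 13.1 and 29.6 FPKM (change -0.19, SE 0.308, adjusted p = 0.648), with TGF-β1 replicate 2 less than 50% of the other treated libraries and a change of 0.17 without it. Summed over the 4 genes, the level was 114, 92.8 and 94.6 FPKM in Control and 92.7, 86.8 and 91.6 FPKM with TGF-β1, so that the highest treated sum lay just below the lowest Control sum.

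Of the activators that replace the cap, 2 were called higher, 1 was called lower and 1 was not called. Psme1 and Psme2 together form the interferon-inducible activator used in antigen processing. Psme1 was at 264, 284 and 329 FPKM in Control and 185, 209 and 173 FPKM with TGF-β1 (change -0.62, SE 0.119, adjusted p = 0.00622), and it was the 1 member called lower, a call kept under all 18 alternative settings (adjusted p 0.00318 to 0.0290). Psme2 was at 129.7, 128 and 87.7 FPKM in Control and 151, 155 and 132 FPKM with TGF-β1 (change 0.36, SE 0.169, adjusted p = 0.127), every treated value above every Control value but not called. The ratio of Psme2 to Psme1 was 0.492, 0.450 and 0.266 in the Control libraries, and after TGF-β1 it was 0.815, 0.742 and 0.763, so it did not overlap between groups, a description with no test. On mm9 the genes lie close together, Psme1 on chromosome 14, 56196960 to 56200366 and Psme2 on chromosome 14, 56206278 to 56209950, and Psme1 overlaps Fam158a on the opposite strand. Psme2 has a retrocopy, Psme2b-ps, whose row was at 2.81, 1.84 and 1.33 FPKM in Control and 10.1, 8.17 and 6.91 FPKM with TGF-β1 (change 1.67, SE 0.216, adjusted p = 0.00135). How reads were divided between Psme2 and its copy is not stated, so the value of Psme2 is uncertain.

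The nuclear activators were both called higher. Psme3, which activates breakdown without ubiquitin, was at 33.3, 33.1 and 37.7 FPKM in Control and 44.3, 52.4 and 45.9 FPKM with TGF-β1 (change 0.44, SE 0.0974, adjusted p = 0.0110). Psme4, a large single-chain activator, was at 22.5, 18.2 and 20.1 FPKM and 28.1, 28.3 and 27.7 FPKM (change 0.45, SE 0.0928, adjusted p = 0.00840). In both the groups did not overlap. The inhibitor Psmf1 was at 23.3, 25.7 and 20.1 FPKM and 23.8, 27.6 and 22.0 FPKM (change 0.087, SE 0.125, adjusted p = 0.595) and was not called.

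Psmb11, the beta subunit of the thymus, was under the filter, with 0.470, 0.806 and 0.252 FPKM in Control and 0.0451, 0.512 and 0.114 FPKM with TGF-β1, on 2 to 36 fragments a library. Without the filter its adjusted p was 0.294, so no difference was detectable at this depth. It lies beside Psmb5 on mm9 (Psmb11 on chromosome 14, 55244147 to 55248393, Psmb5 on chromosome 14, 55232644 to 55236851). Psmc3ip matches the name rule but encodes a meiotic recombination partner, not a subunit. Its level was 4.29, 4.46 and 5.18 FPKM in Control and 3.56, 3.71 and 4.06 FPKM with TGF-β1 (change -0.24, SE 0.103, adjusted p = 0.103), all treated values below all Control values, and it was not called.

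The calls depended on single libraries to differing degrees. Of the 24 called members, 15 were called whichever library was left out, and 8 under all 18 alternative settings: Psma1, Psmc6, Psmd1, Psmd2, Psmd5, Psmd8, Psmd14 and Psme1. Leaving out Control replicate 1 ended the calls of Psma7, Psmb7, Psmc5 and Psmd7 (adjusted p 0.0517 to 0.0803). The fit without Control replicate 2 lost the calls of Psma2, Psma3, Psma7, Psmb4, Psmb7, Psmc2 and Psmd7 (adjusted p 0.0594 to 0.101) and added Psmg3 (adjusted p = 0.0475). The omission of Control replicate 3 removed the calls of Psma2, Psma3, Psmb7 and Psmc5 (adjusted p 0.0561 to 0.0709) and added Psmd12 (adjusted p = 0.0124). Dropping TGF-β1 replicate 1 ended the calls of Psma2, Psma3, Psma4, Psma7, Psmb4, Psmb7, Psmc2, Psmc5 and Psmd7 (adjusted p 0.0621 to 0.129). Removal of TGF-β1 replicate 2 ended the calls of Psma2, Psma3, Psmb7, Psmc2, Psmc5 and Psmd7 (adjusted p 0.0519 to 0.0998) and added Psmb5 and Psmd3 (adjusted p 0.0129 to 0.0326). Exclusion of TGF-β1 replicate 3 ended the calls of Psma2, Psma7, Psmb4, Psmb7 and Psmc2 (adjusted p 0.0531 to 0.122). Across these omissions 14 to 20 members were called higher and 1 or 2 lower, against 19.1% to 23.6% and 18.0% to 22.2% of all tested rows. With replicates 1 and 3 alone, 16 members were called higher and 1 lower, against 18.2% and 17.1% of all tested rows. With replicate 2 as a batch term 23 were higher and 2 lower, against 25.1% and 24.9%.

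The count also depended on how libraries were scaled. After scaling each library to the sum of all its protein-coding transcripts of 300 nt or more, all tested rows had a median change of -0.19 in place of -0.02, and 9 members were called higher and 3 lower (Psmc3ip, Psme1 and Psmg3). Among all called rows the share called higher was then 33.9%, against 50.9% with the values as deposited. The members' median then lay 0.32 above the median of all rows, against 0.34 as deposited. Under that scaling 28 of 31 core and cap genes still had a positive change, 7 were called higher and none lower, and Psmb6, Psmc3 and Psmd4 turned to -0.044, -0.17 and -0.18. With upper-quartile scaling 18 members were higher and 1 lower, against 21.6% and 26.2% of all tested rows, and 29 core and cap genes were positive, all but Psmc3 and Psmd4.

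**Figure D5:**
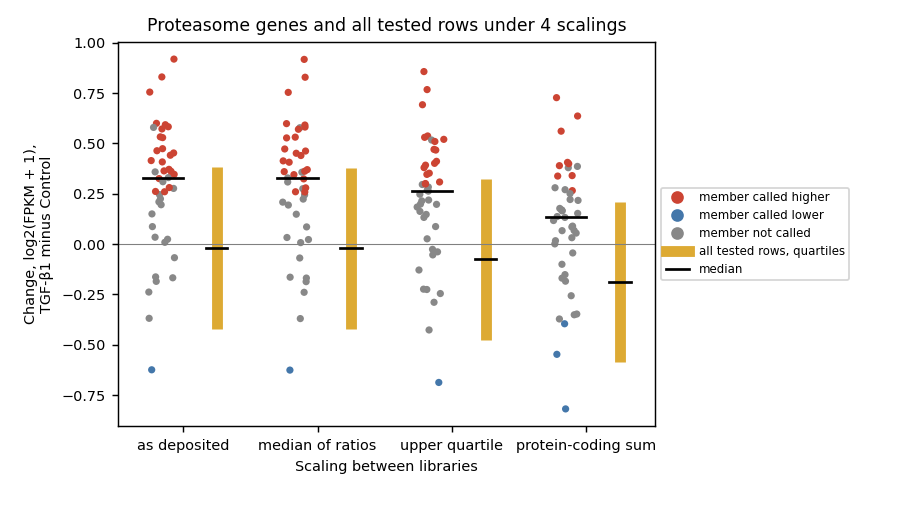
Change of the 44 tested members (points, with a black line at the median) under 4 scalings of the libraries, beside the middle 50% of all tested rows (yellow bar, with a black line at the median). The members' median drops from 0.33 to 0.13 under scaling to the protein-coding sum while the median of all rows drops from -0.02 to -0.19.

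Other genes of the pathway were read from lists. Of the 3 immunoproteasome subunits, which replace the catalytic beta subunits under interferon, Psmb8 (0.207 to 0.581 FPKM) and Psmb9 (0 to 0.428 FPKM) were under the filter. Psmb10 was at 23.8, 19.5 and 20.2 FPKM in Control and 24.9, 19.5 and 24.6 FPKM with TGF-β1 (change 0.11, SE 0.128, adjusted p = 0.499) and was not called. Psmb5, Psmb6 and Psmb7 were at 80.7 to 226 FPKM in the same libraries. Of the 6 tested genes of interferon response and antigen processing, 1 was called higher and none lower, against 24.5% and 23.6% of all tested rows. It was the transcription factor Irf1, which went from 11.6, 17.2 and 12.4 FPKM to 25.98, 20.6 and 22.8 FPKM (change 0.73, adjusted p = 0.0121). The most negative change was that of the peptide transporter Tap2, with 1.34, 1.010 and 2.57 FPKM and 0.936, 1.41 and 1.32 FPKM (change -0.21, adjusted p = 0.490), which was not called.

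Proteasome parts whose names do not begin with Psm were found for 8 of 12 symbols listed, some of which are older and newer names of 1 gene. Of these, 3 were called higher and none lower, against 24.5% and 23.6% of all tested rows. Usp14, the ubiquitin-trimming enzyme docked on the cap, was at 34.5, 30.6 and 33.2 FPKM in Control and 59.0, 60.5 and 54.4 FPKM with TGF-β1 (change 0.81, SE 0.0828, adjusted p = 5.16e-04). Txnl1, a thioredoxin-like protein bound to the cap, and Ube3c, a ubiquitin ligase of the proteasome, were the others, with changes of 0.78 (adjusted p = 2.93e-04) and 0.69 (adjusted p = 5.40e-04). Adrm1, a ubiquitin receptor of the base, Shfm1, a small lid subunit, Pomp, the maturation chaperone of the core, Uchl5, a deubiquitinase, and AI314180, an adaptor that holds core and cap together, had changes of 0.054, 0.11, 0.24, 0.36 and -0.077 and were not called. AI314180, with the 1 negative change, was at 18.4, 20.9 and 22.9 FPKM in Control and 19.7, 21.7 and 17.4 FPKM with TGF-β1, and its groups overlapped.

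Among 7 tested regulators of proteasome genes, 4 were called higher and 1 lower, against 24.5% and 23.6% of all tested rows. Nfe2l1, the transcription factor that raises proteasome genes when the proteasome is blocked, was at 49.5, 54.5 and 60.8 FPKM in Control and 84.8, 73.3 and 85.4 FPKM with TGF-β1 (change 0.56, SE 0.108, adjusted p = 0.00678). Ddi2, the protease that cuts its protein into the active form, had a change of 0.33 (adjusted p = 0.0285). The small Maf partner Maff had the largest rise, from 6.98, 5.25 and 6.41 FPKM to 10.8, 11.8 and 10.5 FPKM (change 0.74, SE 0.115, adjusted p = 0.00271), and Mafk, another, had a change of 0.69 (adjusted p = 0.0149). Keap1, the adaptor that holds down the related factor Nfe2l2, was at 14.6, 12.1 and 16.1 FPKM and 9.78, 8.85 and 10.5 FPKM (change -0.50, SE 0.123, adjusted p = 0.0161). Nfe2l2 and Ngly1, the enzyme that removes sugars from Nfe2l1, had changes of 0.29 (adjusted p = 0.0684) and -0.20 (adjusted p = 0.116) and were not called. Under scaling to the protein-coding sum 3 were higher (Maff, Mafk and Nfe2l1) and 2 lower (Keap1 and Ngly1). Of all tested rows 16.9% were higher and 33.0% lower under that scaling. Ddi2 was not called there, with upper-quartile scaling, or with any single library left out except Control replicate 3. Mafk was not called without Control replicate 1 or 2, and Keap1 was not called without Control replicate 1 or TGF-β1 replicate 1.

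Ubiquitin genes and the enzymes that charge ubiquitin were called higher in 3 of the 5 cases examined and lower in 1. Of all tested rows 24.5% were called higher and 23.6% lower. Uba6, an activating enzyme, had the largest rise, from 2.49, 2.83 and 3.75 FPKM to 5.80, 6.60 and 5.49 FPKM (change 0.80, SE 0.143, adjusted p = 0.00486). Ubb, a polyubiquitin gene, was called lower, from 954, 968 and 930.5 FPKM to 676, 672 and 659 FPKM (change -0.51, SE 0.0798, adjusted p = 0.00300). Of the 11 genes that carry or extract ubiquitinated proteins, 8 were called higher and 1 lower, against the same shares of all tested rows. The shuttle Ubqln2 rose most, from 13.4, 11.1 and 14.7 FPKM to 42.2, 32.6 and 39.9 FPKM (change 1.48, SE 0.139, adjusted p = 3.57e-04), and the shuttle Rad23b had a change of 1.15 (adjusted p = 0.00253). Zfand2b, a zinc finger protein that binds ubiquitin, fell, from 17.5, 17.4 and 19.8 FPKM to 13.8, 10.7 and 10.5 FPKM (change -0.61, adjusted p = 0.00789). Under scaling to the protein-coding sum, 2 ubiquitin genes were higher and 1 lower, and 5 shuttle genes were higher and 2 lower. All tested rows then had 16.9% higher and 33.0% lower. With 1 library left out, 1 to 3 ubiquitin genes and 5 to 8 shuttle genes were higher. The share of all tested rows called higher was then 19.1% to 23.6%. With replicates 1 and 3 alone, 1 ubiquitin gene and 5 shuttle genes were higher, against 18.2% of all tested rows.

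The change was also set beside the level and GC content of the members. Across the 44 tested members, Pearson's r of the change with the log2 Control level was 0.35 and Spearman's rho 0.30. Across the 38 with a known GC content, r of the change with GC content was -0.28 and rho -0.23. Genes of 1 library share its depth and composition and are not independent, so these values are descriptions. The Control level also enters the change itself, and the log2(FPKM + 1) scale understates the change of low genes. Counting error was small for the abundant members: where a gene has a single annotated transcript, 1281 to 2023 fragments lay behind Psmc1, 1235 to 1900 behind Psmc6 and 1998 to 3889 behind Psmd8, at an assumed fragment length of 200 nt.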

How the data were processed

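RNA-Seq of 3 Control and 3 TGF-β1 samples of primary mesangial cells was used, grouped and numbered by the sample labels. Before deposit, the authors discarded reads of low quality, aligned the others to mouse build mm9 by TopHat and used Cufflinks to obtain FPKM. The submitters' processing notes name TopHat2 2.0.11. Each library has 1 deposited column of FPKM, and 0 columns were left unmatched to a sample. No scaling between libraries and no use of strand is stated. The authors tested with a count model, and counts were not used here. The 11898 of 19730 rows whose FPKM averaged 1 or more across the 6 libraries entered limma 3.58.1 (R 4.3.3, lmFit and trended eBayes) on log2(FPKM + 1), a scale that understates the change of low genes, two-sided, with Benjamini-Hochberg adjustment over all tested rows and a threshold of 0.05. The script was tested on simulated data. SE is the moderated standard error of the change. Depth was chosen to give the largest share of whole-number steps among low FPKM values, under 0.6, at an assumed fragment length of 200 nt. The values came from protein-coding genes with 1 annotated transcript, of 700 nt or more, and only the lowest fragment counts were used. At that depth 99.5% to 99.9% of these values were whole within 0.05 of a fragment. This is the share that was maximised, so it is no separate check. Positions of genes are 1-based on mm9 (GENCODE M1), in which 19699 rows were found by transcript identifier. Promoters are from RefSeq on GRCm38.p6, and the builds were kept apart. Tables and plots were made in Python 3.11.15 (pandas 2.3.3, numpy 2.4.6, matplotlib 3.10.9). Some listed genes are not reported here. Members and lists were chosen with earlier results of these data known. By rule, values of each library are given for catalytic subunits, the largest and smallest change in each role, activators, inhibitor, chaperones, members not called or called against the majority, tissue-restricted members and Psmc3ip, and for lists the members with the largest rise and fall. Levels of Psmd2, Psmd7, Psmd8, Psme2b-ps, Nfe2l1, Cldn2, Krt18 and Cspg4, outside the rule, were added after their values were seen.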

Additional observations from a re-analysis of the deposited data

How the results depend on the processing

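Alternatives were tried for scaling, filter, pseudocount, mean-variance trend, threshold, replicate 2, a replicate block and each library left out. The count of 24 called members became 11 at an adjusted p under 0.01, 12 after scaling to the protein-coding sum, and 15 to 21 with 1 library left out. The count of 5721 called rows became 3672 at an adjusted p under 0.01, 5942 after scaling to the protein-coding sum, and 4419 to 5446 with 1 library left out. The median change of the members became 0.13 after scaling to the protein-coding sum and was 0.28 to 0.36 with 1 library left out. The deviations of same-numbered libraries had correlations of 0.0921, 0.232 and 0.0853, not all over 0.1, so the numbers were not taken as pairs. The fit with the replicate block called 24 members (22 higher, 2 lower) and 5391 rows (22.9% of tested rows higher, 22.4% lower), and the members' median stayed at 0.33. Of 792 member values under the alternatives, 674 kept direction and side of the threshold, 85 fell below it, 13 passed it and 20 changed sign, all of members not called in the first place. Scaling to the protein-coding sum turned Psmb6, Psmc3, Psmd4, Psmd10 and Psmf1 to -0.044, -0.17, -0.18, -0.15 and -0.10, upper-quartile scaling turned Psmc3, Psmd4 and Psmd10 to -0.038, -0.054 and -0.026, and replicates 1 and 3 alone turned Psmd4 and Psmg4 to -0.041 and 0.13. With 1 library left out the sign was not fixed in 7 members: Psmc3 -0.0053 to 0.064, Psmd4 -0.036 to 0.072, Psmd9 -0.28 to 0.060, Psmd10 -0.020 to 0.089, Psmg2 -0.19 to 0.021, Psmg4 -0.39 to 0.17, Psmf1 -0.0033 to 0.17. The cause of these shifts was not tested. At 10.1 to 11.1 M fragments counting error bears most on the lowest members, Psmb11, Psmc3ip and Psmg3.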
